A study of Mus musculus with 6 samples.

Results

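The genes described here build the sperm tail: the tektins Tekt1 to Tekt5, the outer dense fibre genes Odf1, Odf2 and Odf3, and the central apparatus genes Spag6 and Spag16. They were listed by name. Of the 10 listed, 8 have rows in the table of cleavage and polyadenylation sites (pAs), out of 17132 genes, and they hold 29 of its 73540 pAs. Tekt5 and Odf1 have no row under these names in that table and were not analysed here. The samples were testes of FVB mice from 1 to 6 weeks after birth (1w to 6w), and each week had 1 library. The labels name no treatment or engineered allele. RNA was read by 3'READS, which sequences the ends of polyadenylated transcripts, so each read marks a transcript end. The libraries were amplified by PCR, and removal of duplicate reads is not described in the sources used here. Levels are given as RPM, reads per 1000000 poly(A) site-supporting (PASS) reads of the library. They do not grow with transcript length and can be set side by side between genes. How many mice gave each library is not given in the sources used here.

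The sperm tail is a motile cilium with added outer structures. Tektins are filament-forming proteins inside the doublet microtubules of the axoneme. The 2 single central microtubules carry a complex that includes Spag6, an armadillo-repeat protein, and Spag16, a WD-repeat protein. Outer dense fibres run along the doublets in mammalian sperm. In mice the first wave of germ cells reaches meiosis during the weeks sampled here and forms spermatids after it, so each library holds another mixture of cells. In these bulk samples, fewer cells of a type and less RNA per cell cannot be told apart.

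Each tektin used 1 pA in its last exon, close to the stop codon. Their last 30 bases are shown because the reads below were counted at these ends, in mm9 coordinates and on the transcript strand, with the polyadenylation signal in capitals.
Tekt1, chr11:72158224-72158253, minus strand: agagccttATTAAActgcatcgtaagacaa
Tekt2, chr4:125999365-125999394, minus strand: acagtaaaatAATAAAaatggagttctcaa
Tekt3, chr11:62908434-62908463, plus strand: tATTAAAgagttgtgttcacagaaacacca
Tekt4, chr17:25613510-25613539, plus strand: ttcattcaAATAAAgagctctttagttttc
Their 3'UTRs by the GENCODE annotation of mm9 were 42 nt for Tekt1, 85 nt for Tekt2, 119 nt for Tekt3 and 56 nt for Tekt4. Tekt2 and Tekt4 ended after AATAAA, which stood in the last 40 bases of 38.9% of 45809 last-exon pAs of all genes. Tekt1 and Tekt3 ended after ATTAAA, which stood before 14.1% of them.

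Odf2 had 2 pAs with an annotated stop codon upstream, and they are shown because the share of reads at each changed between weeks. The table marks the first as intronic and the second as lying in the last exon.
Odf2 intronic pA, chr2:29778030-29778059, plus strand: tgctgtgaAATAAAagtctggtgtgccaaa
Odf2 last-exon pA, chr2:29787237-29787266, plus strand: gttttacaggaAATAAAgtttgtatcacta
Both carry AATAAA, starting 22 bases upstream of the intronic pA and 19 bases upstream of the last-exon pA. In GENCODE the intronic pA is the end of 6 coding transcripts of 16 to 17 exons and 638 to 701 codons, with a 3'UTR of 105 nt. The last-exon pA is the end of 5 coding transcripts of 20 to 22 exons and 825 to 830 codons, and its 3'UTR of 1085 nt is the longest of the members. As background, the longer Odf2 products include cenexin, a protein of the appendages of the mother centriole.

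Spag6 had 2 main last-exon pAs, a proximal one (Prx-pA) with a 3'UTR of 235 nt and a distal one (Dis-pA) with 798 nt.
Spag6 Prx-pA, chr16:16753672-16753701, minus strand: acttaaaaagacATTAAAaggtttaaaaca
Spag6 Dis-pA, chr16:16753109-16753138, minus strand: gaagatttcAATAAAgtgttaaaaccagca
The Prx-pA follows ATTAAA and the Dis-pA follows AATAAA. Another last-exon pA of Spag6, with a 3'UTR of 63 nt, had 16 reads or fewer in every library. The gene called Spag6 here lies on chromosome 16 and is named Spag6l in later RefSeq releases. It has a near-identical copy on another chromosome, so reads that fit both cannot be assigned with certainty.

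The members' pAs fell in 2 classes of the table only, 11 in last exons and 18 in introns. Of the intronic ones, 10 belong to Spag16 and 5 to Spag6, while Odf2, Tekt3 and Tekt4 have 1 each. The intronic pA of Odf2 held more reads in each library from 3w on than any other pA of the members.

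The tektins, Spag6 and Spag16 were near 0 at 1w and 2w, apart from Tekt2, and stood at 31.3 to 462 RPM from 3w on. Tekt1 stood at 1.30, 2.12, 51.8, 61.4, 50.4 and 54.0 RPM from 1w to 6w. All 4 libraries from 3w on were above both younger ones. Tekt2, the most abundant tektin, stood at 14.8, 16.3, 218, 455, 456 and 462 RPM from 1w to 6w. It was the tektin with most reads in the youngest testes, 68 reads at 1w and 69 at 2w, and its level at 3w was 47.2% of its highest.

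Tekt3, which is known for a part in sperm motility, had 1 read at 1w and 0 at 2w. With 0 reads the 2w library allows up to 0.708 RPM, the level of 3 reads. From 3w to 6w Tekt3 stood at 56.4, 53.8, 50.4 and 38.9 RPM. Tekt4 had 0 reads at 1w, which allows up to 0.652 RPM, and 2 reads at 2w. It then stood at 31.3, 42.9, 49.8 and 43.6 RPM from 3w to 6w. In RPM Tekt3 was highest at 3w and Tekt4 at 5w, but the Poisson intervals of these weeks overlapped with those of neighbouring weeks, and with TMM scaling the highest weeks were 5w and 6w.

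Spag6 stood at 1.96 RPM at 1w and 3.78 at 2w, and then at 250, 211, 187 and 164 RPM from 3w to 6w. Spag16 had 1 read at 1w and 1 at 2w, and then stood at 100, 102, 99.7 and 81.7 RPM. At 3w Spag6 was at its highest and Spag16 at 98.2% of its highest. Odf3, another protein of the sperm tail, was the rarest member, with 0, 0, 1, 9, 6 and 13 reads from 1w to 6w. Its reads were too few to order the weeks from 4w to 6w.

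**Figure D1:**
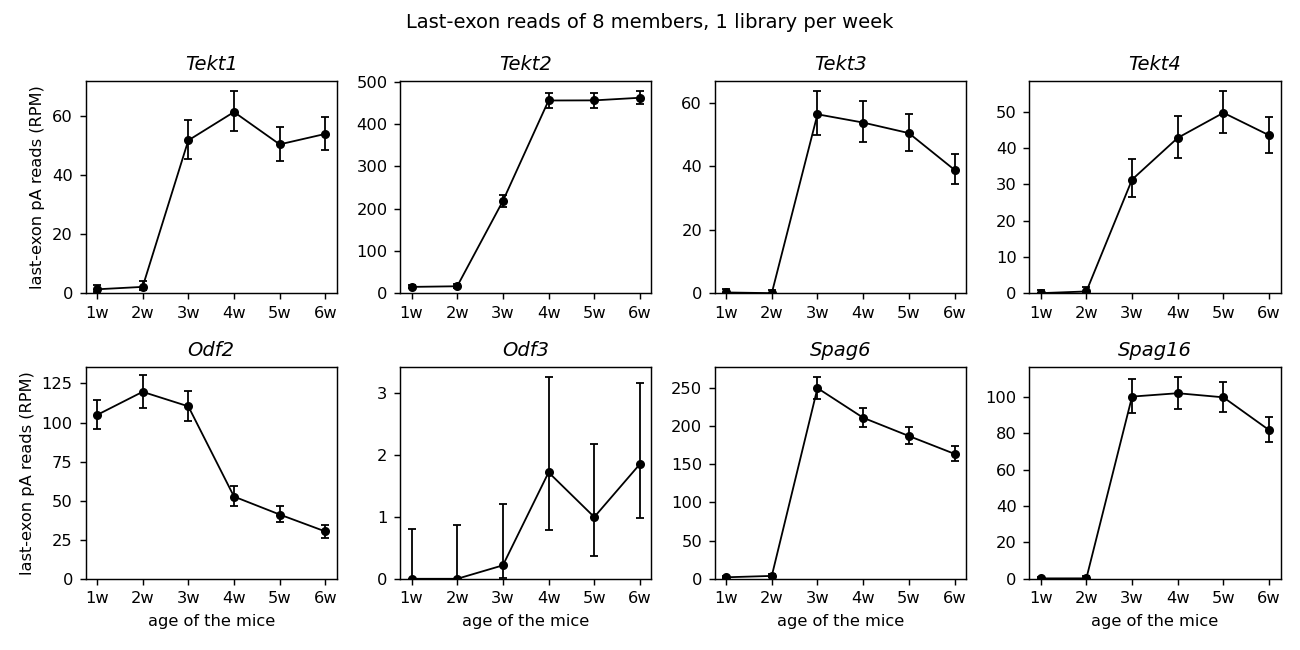
Last-exon pA reads of the 8 members in RPM (y axis, linear, a scale for each gene) at each week (x axis, 1 library each). Error bars are exact 95% Poisson intervals and cover counting error only. The 4 tektins, Spag6 and Spag16 step up at 3w, Odf2 stands at 110 RPM at 3w and 30.3 at 6w, and Odf3 stays under 2 RPM.

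The tektins were not at one level. At 6w Tekt2 stood highest at 462 RPM, followed by Tekt1 at 54.0, Tekt4 at 43.6 and Tekt3 at 38.9 RPM. The 95% Poisson intervals of Tekt1 and Tekt4 overlapped, and so did those of Tekt4 and Tekt3. At 6w Spag6 was above Spag16, with 164 against 81.7 RPM. These orders rest on 1 library a week, so only counting error could be set against them.

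The week of onset was taken as the first at which a gene reached 10% of its highest RPM. It was 3w for 7 members, namely Tekt1, Tekt2, Tekt3, Tekt4, Odf3, Spag6 and Spag16, and 1w for the last-exon reads of Odf2. Of 9594 genes with a highest level of at least 10 RPM, 7.82% had their onset at 3w and 86.1% at 1w. With 50% in place of 10%, the onset of Tekt2 and Odf3 was at 4w. The onset of Odf3 was at 4w also with 25% and with TMM scaling, and it rests on 1 read at 3w.

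The step from 2w to 3w was examined as a ratio of 2 libraries, with an exact 95% interval for counting error and no p-value. Of 7 members with at least 20 reads in both libraries together, 6 were at least 2-fold higher at 3w, and the same 6 were at least 4-fold higher. Over all 11378 genes, 16.8% were at least 2-fold higher and 10.2% at least 4-fold higher, and the median gene was at -0.53 on the log2 scale. Tekt1 was 24.4-fold higher, with an interval of 12.6 to 54.0. Tekt2 was 13.4-fold higher, with an interval of 10.5 to 17.3, the smallest ratio of the 6. Spag6 was 66.1-fold higher, with an interval of 40.5 to 116. The other ratios rest on very few reads at 2w. Tekt4 had 2 reads there and a ratio of 66.4, with an interval of 18.1 to 554. Spag16 had 1 read there and a ratio of 424, with an interval of 75.8 to 16794. Tekt3 had none and was at least 79.6-fold higher when 3 reads are taken as the floor of the 2w library, and the exact interval of its ratio starts at 64.3. The last-exon reads of Odf2 stood at 0.922 times their 2w level, with an interval of 0.814 to 1.05.

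After 3w the members differed by less. From 3w to 4w Tekt2 was 2.09-fold higher, with an interval of 1.94 to 2.25, where 10.1% of 10919 genes were at least 2-fold higher. The last-exon reads of Odf2 stood at 0.477 of their 3w level, with an interval of 0.410 to 0.553, where 37.5% of genes were at least 2-fold lower. From 4w to 5w and from 5w to 6w, 0 of 7 members passed 2-fold in either direction. Over all genes 1.47% were at least 2-fold higher and 9.07% lower at 5w than at 4w, and 1.23% higher and 5.22% lower at 6w than at 5w. From 1w to 2w, 3 members had enough reads and 0 passed 2-fold, where 7.11% of genes were higher and 6.4% lower.

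**Figure D2:**
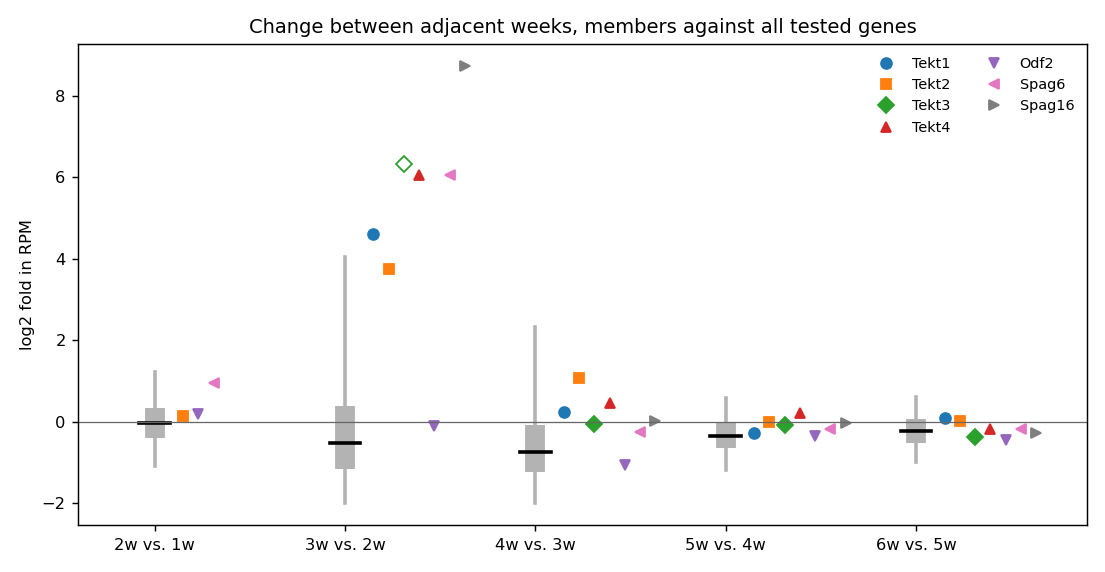
Log2 fold in RPM between adjacent weeks (x axis) for the members with at least 20 reads in both libraries together (points), against all genes with as many reads (thin bar 5th to 95th percentile, thick bar 25th to 75th, black line median). The open diamond is the lower bound for Tekt3, which had 0 reads at 2w. At 3w vs. 2w, 6 of 7 points lie at least 4-fold above 0, and Odf2 lies at 0.922-fold.

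The direction after 3w depends on the scaling. The 7 genes of spermatid nuclear proteins (Tnp1, Tnp2, Prm1, Prm2, Prm3, Hils1, H1fnt) together took 583 RPM at 3w but 84497 at 4w and 188557 at 6w. With TMM scaling, which weighs libraries by the bulk of genes, the median gene stood at -0.01 on the log2 scale at 4w vs. 3w, against -0.75 in RPM. Spag6 stood at 0.845-fold of its 3w level at 4w in RPM and at 1.41-fold with TMM. Tekt3 stood at 0.954-fold in RPM and 1.59-fold with TMM, and Spag16 at 1.02-fold and 1.70-fold. Tekt4 passed 2-fold with TMM, at 2.28-fold against 1.37-fold in RPM. The last-exon reads of Odf2 stood at 0.795-fold with TMM and were no longer 2-fold lower. The step at 3w kept its direction for the same 6 members under both scalings.

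Reads of epididymis genes differed between the libraries. The 7 epididymis markers summed to 80.2 RPM in the 2w library, 99.9 in the 3w and 15.7 in the 5w library, and to 0.435 to 2.30 RPM in the other 3 libraries. Crisp1, a secreted protein of the epididymis, made up most of it, with 1, 325, 421, 6, 84 and 7 reads from 1w to 6w. Adam7 had 9 and 4 reads at 2w and 3w, Spag11a 1 and 13, and Gpx5 3 and 0, with 0 in all other libraries. Rnase10 had 0, 0, 19, 6, 10 and 5 reads from 1w to 6w, and Lcn5 and Lcn8 had 0 or 1 read in every library. The markers summed to 1.71 to 2.30 RPM in the 4w and 6w libraries. Their part in the members' values was not tested. The spermatid nuclear protein genes summed to 446 RPM at 1w and 66.3 at 2w, which is 0.236% and 0.0352% of their 6w level. At 1w Tekt1 stood at 2.12%, Tekt2 at 3.20% and Spag6 at 0.784% of their highest level, and Tekt3 and Spag16 at 0.386% and 0.213%. The part of such reads in the 1w values of the members was not tested.

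The study sets 1–3 week against 4–6 week samples for APA, and the same classes, 3 libraries against 3, were compared here for gene expression. No member passed edgeR's quasi-likelihood test in it at an adjusted p threshold of 0.05. Of 11269 genes tested, 17.7% were higher and 22.5% lower in 4–6 week samples. Of the 7 members tested, 0 were called in either direction. At an unadjusted edgeR p under 0.05 there was 1 member, where 6168 of the 11269 genes were, in either direction. DESeq2, which gave no adjusted p for Spag6, called 1 of the other 6, where it called 29.4% of genes higher. All 6 members other than Odf2 had positive log2 changes, and the median of the 7 was 2.57, against -0.07 over all genes tested. Odf3 did not pass the filter on low counts.

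Tekt2 came closest to the threshold. Its mean was 83.0 ± 117 RPM (SD, n = 3) in 1–3 week samples and 458 ± 3.65 RPM (SD, n = 3) in 4–6 week samples, and all 3 older libraries were above all 3 younger ones. The edgeR log2 change was 3.60 with an SE of 1.27 and an adjusted p of 0.0599, and DESeq2 gave an adjusted p of 0.00110. With edgeR, Tekt4 had a log2 change of 3.21 (SE 1.74, adjusted p 0.166) and Tekt1 of 2.69 (SE 1.41, adjusted p 0.154). For Tekt3 edgeR gave 2.40 (SE 1.87, adjusted p 0.310). The central apparatus genes gave 2.57 for Spag16 (SE 1.96, adjusted p 0.301) and 2.21 for Spag6 (SE 1.71, adjusted p 0.308). The SDs of the younger class were larger than its means for these 6 genes, since 3w was far above 1w and 2w.

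The 3w library decided these results. Without it, 6 of 7 members were called higher by edgeR, against 35.8% of 12252 genes. The log2 changes then ranged from 6.47 for Tekt2 (SE 0.44, adjusted p 3.90e-06) to 10.03 for Spag16 (SE 0.48, adjusted p 3.15e-06). Tekt1 stood at 6.56 (SE 0.39), Spag6 at 7.58 (SE 0.44), Tekt4 at 8.99 (SE 0.61) and Tekt3 at 9.82 (SE 0.53). Leaving out any other library, edgeR called 0 of 7, with 0 or 1 at an unadjusted p under 0.05. Over all genes, 4361 (without 6w) to 5325 (without 4w) were under 0.05 in these fits. Without replicates of any week, the spread within a class holds age as well as error, and no exact permutation test of 3 against 3 can go below p = 0.1.

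**Figure D3:**
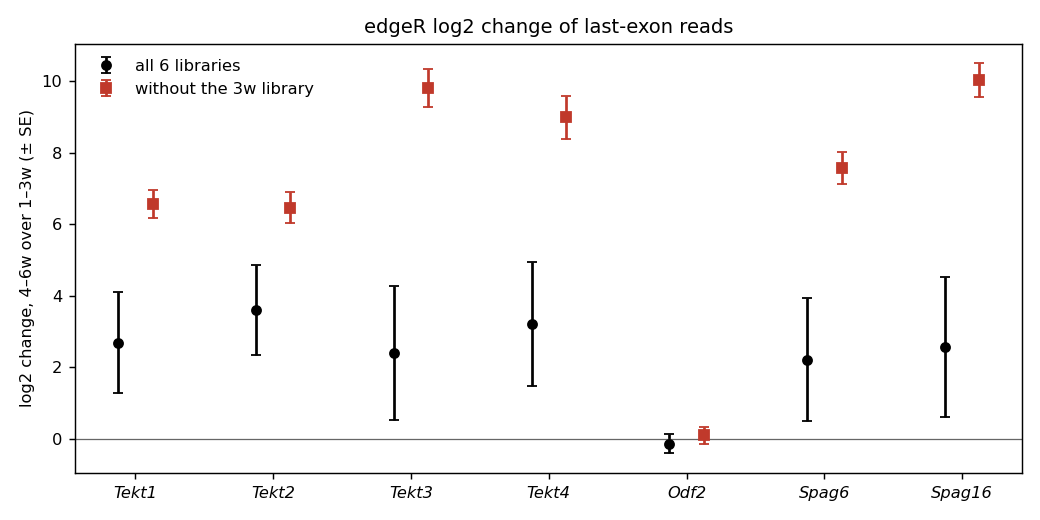
edgeR log2 change of last-exon reads, 4–6 week over 1–3 week samples (y axis, with the SE as error bars), for the 7 members tested, with all 6 libraries (black circles, 3 against 3) and without the 3w library (red squares, 2 against 3). Without 3w the 6 members other than Odf2 lie between 6.47 and 10.03, while Odf2 stays near 0.

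Separation of the classes also depended on the scaling. In RPM, all 4–6 week libraries were above all 1–3 week libraries for 2 of the 7 members tested, Tekt2 and Tekt4, against 14.3% of genes, and all were below for 1, Odf2, against 60.6% of genes. With TMM scaling this held for 6 of 7, against 33.1% of genes, and Odf2 was the exception.

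Odf2 showed another pattern, a change of pA. Its last-exon pA, which ends the longer coding transcripts, had 105, 120, 110, 52.6, 41.1 and 30.3 RPM from 1w to 6w. Its intronic pA, which ends the shorter ones, had 4.13, 12.3, 346, 537, 668 and 566 RPM. In RPM the 1–3 week libraries were all above the 4–6 week libraries at the last-exon pA and all below them at the intronic pA, and the 3w library was the first with more intronic than last-exon reads.

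The intronic pA took 3.79% of the 501 Odf2 reads at 1w, with a 95% Wilson interval of 2.44% to 5.85%. At 2w it took 9.30% of 559 reads, with an interval of 7.16% to 12.0%. At 3w it took 75.8% of 2095 reads, with an interval of 73.9% to 77.6%. The share was then 91.1%, 94.2% and 94.9% from 4w to 6w, with intervals from 90.0% to 95.5% in all. The intervals of 5w and 6w overlap, and all other adjacent weeks have separate intervals.

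**Figure D4:**
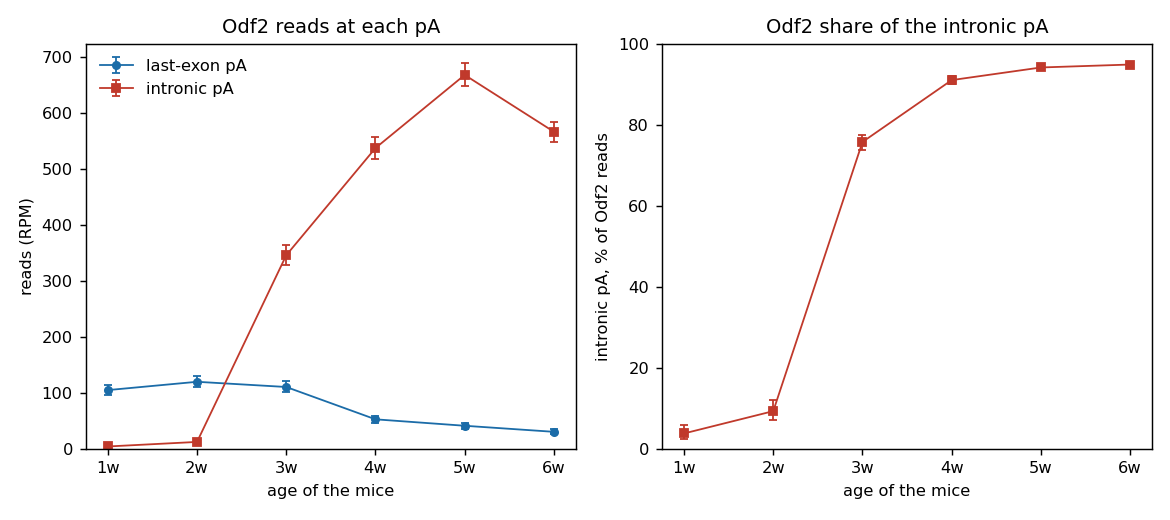
Left, reads of Odf2 in RPM (y axis, linear) at its last-exon pA (blue circles) and its intronic pA (red squares) at each week (x axis, 1 library each), with exact 95% Poisson intervals. Right, the intronic pA as a percentage of all Odf2 reads, with 95% Wilson intervals, from 3.79% at 1w to 94.9% at 6w.

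A test of the ratio of last-exon to intronic and upstream-exon reads was added after these reads were seen. In it, 2437 genes had at least 20 reads in every library and at least 5 intronic or upstream-exon reads over all libraries. Of these, edgeR called 4.19% higher and 20.8% lower in 4–6 week samples. Odf2, the 1 member that met both limits, was lower, at -6.27 on the log2 scale (SE 1.40, adjusted p 0.00615). Without the 2w library it was at -5.23 with an adjusted p of 0.0778. Without 3w it was at -7.77, and without 1w at -4.63, both past the threshold.

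Whether Odf2 was called higher depended on which reads were counted, and whether it was called lower depended on the scaling. From last-exon reads, as the study counts expression, the edgeR log2 change was -0.15 (SE 0.27, adjusted p 0.664). That value was 0.0036 with RLE size factors, and with libraries scaled to the PASS totals alone it was -1.43 (adjusted p 0.0121), where the median gene was at -1.39 and 55% of genes were lower. From all sense-strand reads, 109, 132, 456, 590, 709 and 596 RPM from 1w to 6w, edgeR gave 2.58 (SE 0.77, adjusted p 0.0375), and 18.5% of 11842 genes were higher. That call was lost without any 1 of the libraries but 3w, with adjusted p from 0.0769 to 0.118, and without 3w it was at 3.88 (adjusted p 2.93e-05, with 36.2% of genes higher). From 2w to 3w, all Odf2 reads together were 3.46-fold higher, with an interval of 3.15 to 3.80.

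Weighted by reads, the mean 3'UTR of Odf2 over both pAs was 1048, 994, 342, 192, 162 and 155 nt from 1w to 6w. Odf2 has 1 last-exon pA, so none of this lay within the last exon.

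The other members had few intronic reads. The intronic pAs of Spag6 took 3 of 12 reads at 1w and 4 of 20 at 2w, and 0.178% to 0.866% from 3w to 6w. Those of Spag16 took 2 of 3 and 4 of 5 reads, and then 3.23% to 4.03%. Tekt3 had 1 intronic read at 1w and 1 at 2w, and 0 of 259 reads at 3w, which allows a share of up to 1.16%. Wilson intervals of the Spag6 share were 8.89% to 53.2% at 1w and 8.07% to 41.6% at 2w, above 0.470% to 1.58% at 3w. Those of Spag16 were 20.8% to 93.9% and 37.6% to 96.4%, above 2.55% to 6.11% at 3w. Those of Tekt3 were 9.45% to 90.5% and 20.7% to 100%, above 0% to 1.46% at 3w. The intronic pA of Tekt3 had 2 reads in all, 1 at 1w and 1 at 2w, and entered the table through them alone. No fall in its share can be read from this. For Spag6, 1 intronic pA had its 2 reads at 1w only. The intervals of Spag6 and Spag16 take no account of how pAs entered the table. With so few reads and 1 library a week, the size of a fall after 1w and 2w could not be read from these shares.

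The study's other comparison within a gene asks whether 3'UTRs are shorter in 4–6 week samples, from the ratio of Dis-pA to Prx-pA reads. No member had at least 20 Dis-pA and Prx-pA reads together in every library, the limit for the edgeR test. With at least 20 reads in each age class, 7248 genes could be tested, of which 28.4% had a lower ratio and 1.13% a higher one. By edgeR, Spag6 was at -0.82 (SE 0.45, adjusted p 0.204) and Spag16 at 0.03 (SE 0.50, adjusted p 0.974). The median gene was at -1.06, lower than both. By edgeR 0 of these 2 members were called, and 0 were at an unadjusted p under 0.05, where 2795 of the 7248 genes were.

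The share of the Dis-pA of Spag6 was lower from 4w on than at 3w. The Dis-pA took 62.9% of 1141 reads of both at 3w, with a Wilson interval of 60.1% to 65.7%. It took 52.8% at 4w, with an interval of 49.8% to 55.7%, and 46.2% at 5w, with an interval of 43.3% to 49.2%. At 6w the share was 48.3%, with an interval of 45.4% to 51.2% that overlaps those of 4w and 5w. At 1w and 2w it was 5 of 9 and 11 of 16 reads. The mean last-exon 3'UTR of Spag6 was 587, 529, 490 and 501 nt from 3w to 6w. The Dis-pA of Spag16 took 97.2%, 96.8%, 96.3% and 95.6% over the same weeks, and all these intervals overlap.

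**Figure D5:**
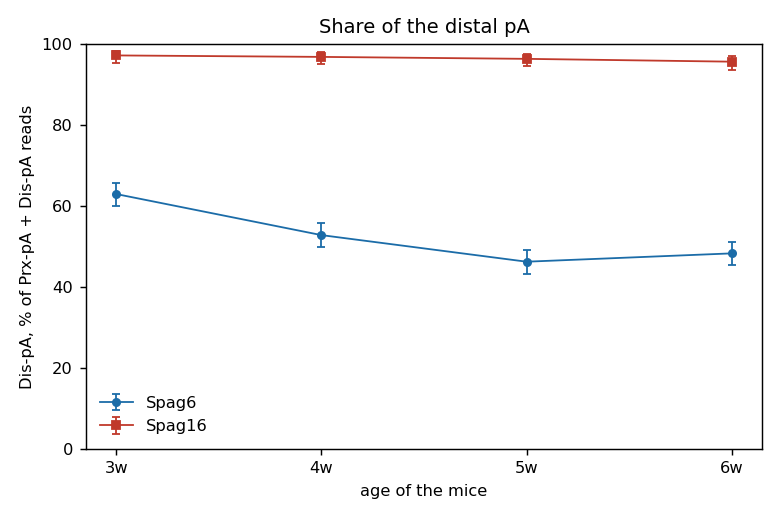
Dis-pA reads as a percentage of Prx-pA and Dis-pA reads (y axis) for Spag6 (blue circles) and Spag16 (red squares) at 3w to 6w (x axis, 1 library each), with 95% Wilson intervals. Spag6 stands at 62.9% at 3w and 46.2% at 5w, and Spag16 stays between 95.6% and 97.2%.

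Since the tektins, Spag6 and Spag16 had their onset in the same week, the members' promoters were searched for short motifs. RefSeq promoters of GRCm38.p6, from 250 bases before to 50 after the start, were matched for all 8 members and placed in mm9 by exact sequence. The reference strain is not FVB. The X-box, the paired site of RFX factors that switch on ciliary genes, was searched on both strands. It stood in promoters of 4 of 8 members, Tekt1, Tekt4, Spag6 and Spag16, and in those of 5.26% of 27025 genes. One window per gene is shown in the orientation of the gene, with the X-box in capitals.
Tekt1, chr11:72175378-72175407, minus strand: tccgtccgGTTGCCATAGAGACcgcagttt
Tekt4, chr17:25608527-25608556, plus strand: tatacaatGTTCCTTAGGCAACcaggaacc
Spag6, chr16:16829407-16829436, minus strand: tccggttgctgtcgGTTGCCCTGGAGACgc
Spag16, chr1:69873433-69873462, plus strand: ggcaacgcGTTGCCGTAGTAACtgcggacg
The shorter RFX motif GTTGCC, which can overlap an X-box, stood on either strand in promoters of 6 members, the same 4 with Tekt2 and Odf3, and of 14.1% of genes. Tekt2 had 1 on each strand.
Tekt2, chr4:126003011-126003040, minus strand: cgcagctgcgcgGTTGCCtggctaagctga
Tekt2, chr4:126002937-126002966, minus strand: gggcggttgctcGGCAACcagagccgcaaa
The cAMP response element TGACGTCA, to which CREM binds, stood in 1 promoter, that of Spag6, and in 2.03% of genes. Its shorter form TGACG stood in 3 and in 23.0%, and the forkhead motif GTAAACA in that of Tekt3 and in 4.05%. These matches describe the sequence and were not tested.

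Genes with the most similar course over the 6 weeks were taken from 9587 genes, as the smallest root mean square difference (RMS) in log2(RPM + 1) after each gene's highest week was set to 0. For Tekt1 this was 4930521A18Rik (RMS 0.110), for Tekt2 Ppp1r32 (0.131) and for Tekt3 Trim69 (0.136). For Tekt4 it was Enkur (0.174), a protein of ciliary doublets, with 10.0, 20.1 and 358 RPM in the first 3 weeks. Spag6 was nearest to Speer2 (0.133) and Spag16 to Lin7a (0.102). The last-exon reads of Odf2 were nearest to Acadvl (0.0423), a mitochondrial enzyme of fatty acid oxidation. Among the members themselves, Spag6 and Spag16 were nearest to each other (0.350) and so were Tekt1 and Tekt2 (0.408). Of the 9587 other genes, 16 were closer than that to Spag6, 16 to Spag16, 81 to Tekt1 and 60 to Tekt2.

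The 6 lists of other tail and cilium genes were set beside the members, in the edgeR comparison of the age classes. Together they name 93 genes, of which 71 were tested, 18 were higher and 0 lower in 4–6 week samples, with a median log2 change of 2.38. At an unadjusted p under 0.05, 27 were higher and 0 lower, and DESeq2 called 33 higher and 0 lower. Over all genes tested, 17.7% were higher by edgeR and 29.4% by DESeq2. At an unadjusted edgeR p under 0.05 were 6168 of the 11269 genes, in either direction. Of the 18 calls, 3 were made with each library left out in turn. The onset was 3w for 44 of the 71, 1w for 19, 4w for 5 and 2w for 3, where 7.82% of the genes with at least 10 RPM had theirs at 3w.

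Among the other Odf and Spag genes, 3 of 10 tested were higher, namely Odf3b, Spag4 and Spag7, where 17.7% of all genes were. The median log2 change was 1.73. These calls use TMM scaling. In RPM Spag7 stood at 64.8, 54.5, 60.7, 53.4, 42.0 and 38.7 from 1w to 6w, with all older libraries below all younger ones. Odf3b, a relative of Odf3, had the highest change, 6.17 (SE 0.63, adjusted p 0.00641), with 0.435, 0.708, 1.31, 17.2, 27.3 and 27.0 RPM from 1w to 6w. The onset of Odf3b was at 4w, a week after that of the tektins. Spag9, a scaffold protein of JNK signalling, had the lowest, -0.37 (SE 0.26, adjusted p 0.269). From 2w to 3w, 7 of 9 were at least 2-fold higher, where 16.8% of all genes were.

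Of the fibrous sheath, the sleeve of the principal piece, 3 of 6 tested were higher (Akap3, Ropn1, Cabyr), where 17.7% of all genes were. The median log2 change was 4.90. Ropn1 had the highest, 6.52 (SE 1.59, adjusted p 0.0246), and Ropn1l the lowest, 3.22 (SE 1.77, adjusted p 0.170). All 6 were at least 2-fold higher at 3w than at 2w, where 16.8% of all genes were. Of the doublet microtubule inner proteins, where the tektins also lie, 4 of 15 were higher (Efhc2, Ribc1, 1700007K13Rik, 1700026L06Rik), with a median of 2.48. The highest was 1700026L06Rik at 5.89 (SE 1.43, adjusted p 0.0240) and the lowest Gtl3 at 1.04 (SE 0.55, adjusted p 0.155), and 12 of 14 were at least 2-fold higher from 2w to 3w.

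Of the central pair and radial spokes, the structures of Spag6 and Spag16, 1 of 9 was higher, where 17.7% of all genes were. The median was 2.44. The gene called was Dnajb13, a radial spoke protein, at 4.78 (SE 1.56, adjusted p 0.0492), and Spef1 had the lowest change, 1.04 (SE 0.56, adjusted p 0.165). From 2w to 3w, 9 of 9 were at least 2-fold higher, where 16.8% of all genes were. Of dynein arms and their regulators, 5 of 26 were higher (Dnahc5, Dnahc9, Dnalc1, Ccdc63, Gas8), close to the 17.7% of all genes. The median was 2.02. Dnahc9, a dynein heavy chain, had the highest at 5.75 (SE 0.88, adjusted p 0.0101), and Ccdc114, which docks outer arms, the lowest at 0.82 (SE 0.46, adjusted p 0.179). From 2w to 3w, 20 of 22 were at least 2-fold higher, against the same 16.8%.

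Of the regulators of ciliary genes, 2 of 6 were higher with TMM scaling (Rfx1, Ccno), where 17.7% of all genes were. The median was 1.66. In RPM Rfx1 stood at 22.8, 21.9, 22.0, 18.2, 18.5 and 13.9 from 1w to 6w, lower in all older libraries. Ccno had 8 to 21 reads per library and was lowest in RPM at 6w, at 1.43. Crem, a transcription factor of spermatids, had the highest change, 2.59 (SE 0.86, adjusted p 0.0521), and Rfx3 the lowest, 0.62 (SE 0.33, adjusted p 0.163). Rfx2, a factor that binds X-boxes, stood at 19.8, 72.7, 530, 390, 351 and 250 RPM from 1w to 6w. All 4 libraries from 3w on were above both younger ones. Foxj1 had 0, 0, 3, 11, 11 and 15 reads and was not tested.

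Markers of the cells in the testis were set beside these weeks. All 7 spermatid nuclear protein genes had their onset at 4w, and all 7 were higher in 4–6 week samples. Of 8 pachytene and late spermatocyte markers, 5 had their onset at 3w and 0 were called by edgeR, with 1 higher at an unadjusted p under 0.05 and 2 higher by DESeq2. Of 9 acrosome and round spermatid markers, 8 had their onset at 3w and 5 were higher. Of 8 Sertoli cell markers, 7 were lower, where 22.5% of all genes were. Spermatogonial markers were lower in 2 of 6, and those of peritubular, vascular, blood and immune cells in 3 of 3. Meiotic prophase markers were higher in 2 and lower in 1 of 8, and Leydig cell markers higher in 1 of 5. The last 2 lists lay near the shares over all genes tested, 17.7% higher and 22.5% lower by edgeR. DESeq2 called 29.4% of genes higher, and 6168 of 11269 were at an unadjusted edgeR p under 0.05. Of genes with at least 10 RPM, 7.82% had their onset at 3w and 3.71% at 4w. When 1 library at a time was left out, 2 of the 7 calls on spermatid nuclear protein genes held every time, and 0 of the calls on the other marker lists did. Crisp1, the 1 epididymis marker tested, was at -2.12 (SE 1.69, adjusted p 0.321).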

How the data were processed

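Whole-testis RNA was profiled by 3'READS in 6 libraries, 1 per week. The authors mapped reads to mm9 with Bowtie 2 (version not given in the sources used here), kept PASS reads with at least 2 unaligned Ts, clustered pAs within 24 nt and assigned them to genes. The deposited values are raw counts of PASS reads per pA, not normalized, and total 3512699 to 5450015 reads per library. One read was worth 0.143 to 0.236 RPM, computed from the study's PASS totals. The 1053 rows of pAs assigned to several genes were left out. The members and gene lists were chosen with earlier results of these data known.

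Expression was the sum of last-exon pA counts. Age classes were compared with edgeR 4.0.16 (quasi-likelihood, TMM, filterByExpr) and DESeq2 1.42.0 in R 4.3.3, with Benjamini-Hochberg adjustment over all genes and a threshold of 0.05. An SE is the log2 change divided by the root of F. Isoform ratios had a term for each library. The edgeR fits of expression and of both isoform ratios, at their main settings, were tested on simulated data with no age trend within a class. DESeq2 and the other settings were not tested in this way. Shares carry Wilson intervals and ratios of 2 libraries exact conditional binomial intervals at 95%. These intervals and floors of 3 counts cover counting error only and take each read as an independent count. Where separate mice are not stated, p-values measure only the spread between these libraries. The genes named are the members, the highest and lowest tested gene of each pathway list and the nearest gene of each member. Others, such as called genes of a list, markers, Rfx2 and Foxj1, were named after their values were seen. Alternatives were other scalings, filters, read classes and libraries left out. pA ends and 3'UTRs were read from the mm9 genome with GENCODE vM1.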

Additional observations from a re-analysis of the deposited data

How the results depend on the processing

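No paired analysis was possible because each week has 1 library and nothing in the labels pairs a younger with an older one. The week-to-week and onset values have no test.

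In the expression comparison 1990 genes were higher and 2541 lower. Leaving out 1 library gave 338 (without 5w) to 4392 (without 3w) higher and 0 (without 5w) to 4123 (without 3w) lower, and 0 to 6 members higher. DESeq2 gave 3310 higher. Scaling to PASS totals gave 1079 higher and 6189 lower, so that 14.8% of calls were higher against 43.9%, with 1 member (Odf2) lower. Members called higher were 1 with DESeq2 (Tekt2), 1 with all sense-strand pAs (Odf2) and 1 with no filter on low counts (Odf3, log2 change 5.18, adjusted p 0.0150, of 13.7% of genes higher). The log2 change of Odf2 from last-exon reads turned positive with DESeq2 (0.0046), RLE size factors (0.0036), all sense-strand pAs (2.58), without 3w (0.093) and without 6w (0.02, where leaving out 1 library gave -0.25 to 0.093), of which all sense-strand pAs alone passed the threshold. Leaving out 1 library from the fit of all sense-strand pAs gave 525 to 4640 genes higher, 15 to 4333 lower and 0 to 7 members higher.

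For 3'UTR-APA, leaving out 1 library gave 22 to 138 genes with a higher ratio, the most distal pA against all others gave 178, and a limit of 50 reads gave 965 with a lower ratio. For the ratio of last-exon to intronic reads, leaving out 1 library gave 23 to 280 higher, 231 to 733 lower, 0 to 1 members lower and -7.77 to -4.63 for Odf2, and a limit of 50 reads gave 319 lower. At 4w vs. 3w, a limit of 4-fold gave 0 members up and 0 down, TMM scaling gave 2 up and 0 down, and all sense-strand pAs gave 0 down. The causes were not tested.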
